A study of Mus musculus with 12 samples.

Results

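Glycolysis and the use of pyruvate were followed in mouse embryonic stem (ES) cells entering an mTORi-induced paused state, through 33 genes that carry glucose into the cell, break it down to pyruvate and send pyruvate either to lactate or to the mitochondrion. The members were picked by gene symbol, with earlier results of these data known, and are 33 of the 54446 gene identifiers in each deposited expression file. All 33 passed the filter on low values used for testing (a mean of at least 1 TPM over 12 libraries). The symbol Aldoa has a second row under another identifier, at 1 to 3 TPM, which was left out.

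In glycolysis, glucose enters through facilitative transporters, is phosphorylated by hexokinases and committed by phosphofructokinase, is then split into trioses, and yields ATP at the phosphoglycerate kinase and pyruvate kinase steps. Lactate dehydrogenase turns pyruvate into lactate and regenerates NAD+, whereas the pyruvate dehydrogenase complex turns it into acetyl-CoA for the citrate cycle, and pyruvate dehydrogenase kinases switch that complex off. Naive mouse ES cells are known to use both routes, mTOR complex 1 is known to raise translation of the hypoxia-inducible factor HIF1A, and HIF1A is known to activate many glycolytic genes.

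Cells of a wild-type line, KH, and of a line without Dnmt3a and Dnmt3b (DNMT3ABKO), the enzymes that set new DNA methylation, were collected untreated (0 h) and after 72 and 144 h in INK128, which blocks the mTOR kinase (mTORi). There were 2 libraries per group and 12 in all. The labels write E14 before both line names, whereas the methods name KH2 as the wild type, place it and the knockout on a layer of feeder fibroblasts, and sort viable single cells before RNA was extracted. The methods also describe a wild-type E14 line grown on gelatin with no feeders, so it is uncertain from which culture the KH libraries came. Fibroblast markers were present in both lines at 0 h. Each genotype is 1 line, so line and genotype cannot be told apart. No untreated cells were collected at 72 or 144 h, so the treatment and the time in culture cannot be told apart either.

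Promoter windows of 4 members, chosen after their values were seen, are shown for the reader to compare. Ldha had the deepest fall at 72 h, Tpi1 and Pgk1 are triose-step genes that fell in both lines, and Hk2 rose. RefSeq windows (GRCm38.p6, 250 bases before to 50 after a transcript start, written along the gene's strand) were searched on both strands for ACGTG and GCGTG, the core letters bound by HIF1A with its partner ARNT, which are in capitals. The palindrome CACGTG, the E-box read by MYC and TFE family factors, holds ACGTG on each strand and is counted for both. The Ldha window shown (chr7:46845554-46845853, plus strand) held 5 matches to ACGTG, of which 4 came from CACGTG at 2 places, and 2 to GCGTG. Another Ldha window, not shown (chr7:46846832-46847131, plus strand), held 2 matches to GCGTG and none to ACGTG or CACGTG. The Pgk1 window (chrX:106186850-106187149, plus strand) and the Hk2 window (chr6:82774405-82774704, minus strand) held 2 matches to ACGTG each, and the Tpi1 window (chr6:124814109-124814408, minus strand) held none of the 3 motifs.
Ldha: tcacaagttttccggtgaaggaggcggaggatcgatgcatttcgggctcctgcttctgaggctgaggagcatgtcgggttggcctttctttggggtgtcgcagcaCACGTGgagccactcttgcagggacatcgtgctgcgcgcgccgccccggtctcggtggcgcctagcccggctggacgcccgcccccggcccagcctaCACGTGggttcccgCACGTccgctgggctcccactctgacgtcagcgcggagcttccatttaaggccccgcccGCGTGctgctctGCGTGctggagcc
Pgk1: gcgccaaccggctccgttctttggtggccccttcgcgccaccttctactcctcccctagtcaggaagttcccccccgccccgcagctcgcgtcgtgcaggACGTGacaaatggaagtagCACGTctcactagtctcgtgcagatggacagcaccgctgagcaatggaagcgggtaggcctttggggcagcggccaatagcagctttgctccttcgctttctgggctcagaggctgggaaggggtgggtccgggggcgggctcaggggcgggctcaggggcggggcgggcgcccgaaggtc
Hk2: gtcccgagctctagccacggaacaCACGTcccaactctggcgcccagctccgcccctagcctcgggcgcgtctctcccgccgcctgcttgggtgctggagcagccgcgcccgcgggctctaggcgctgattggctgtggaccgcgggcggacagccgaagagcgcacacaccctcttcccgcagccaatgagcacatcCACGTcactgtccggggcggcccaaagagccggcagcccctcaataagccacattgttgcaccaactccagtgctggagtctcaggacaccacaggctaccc
Tpi1: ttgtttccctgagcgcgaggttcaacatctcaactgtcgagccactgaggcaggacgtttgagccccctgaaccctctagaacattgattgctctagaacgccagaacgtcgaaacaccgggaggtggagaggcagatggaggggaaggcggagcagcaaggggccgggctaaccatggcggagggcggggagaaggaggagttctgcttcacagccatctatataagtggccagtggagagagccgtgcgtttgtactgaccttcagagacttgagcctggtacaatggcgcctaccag
A window was found for 32 of the 33 members, Slc2a3 being the exception. ACGTG was in at least 1 window of 20 of these 32 members (62.5%) and of 21.8% of 27025 genes, GCGTG in 20 of 32 (62.5%) and 35.2%, and CACGTG in 7 of 32 (21.9%) and 8.09%. All members passed the filter on low values, as did 15727 genes in all, so the 27025 genes include unexpressed ones. The shares thus compare unlike sets, and a background matched on expression or base content was not tested. Ldha, which fell under mTORi, and Hk2, which rose, both held ACGTG in the windows shown. Genes with several starts have several windows, and counted per window ACGTG was in 23 of 46 member windows (50%) and 19.6% of 32851 windows. A match describes letters and not a bound site.

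Values are TPM, a share of each library's RNA corrected for transcript length, and a fold change is a difference of log2(TPM + 1). A call is a limma adjusted p under 0.05 over 15727 genes, with the spread shared by all 6 groups. The labels do not say whether the 2 libraries of a group came from separate cultures. The study describes its experiments as independently repeated, and the p-values measure the spread between these libraries. TPM keeps no read depth, spike-in RNA was not used here, and a change in total RNA per cell is not visible here. The study, which scaled its RNA to the spike-in, reports a global fall of the transcriptome under mTORi in wild-type and Dnmt3a/b knockout cells. A rise or fall below is therefore one in share of the library, and change per cell was not tested. Dnmt3a and Dnmt3b were lower in every DNMT3ABKO library (mean log2 differences of -2.37 and -3.13, exact two-sided permutation p = 0.00926 each, the smallest that 216 assignments can give). The library DNMT3ABKO 0 h replicate 1 stood apart, with 0.747% of its TPM from mitochondrially encoded genes against 1.77 to 2.86% elsewhere, so counts that use DNMT3ABKO cells at 0 h are also given without it. Fibroblast markers, summed over 20 genes, fell from 1573 to 1702 TPM in KH cells at 0 h to 462 to 472 at 72 h and 90.03 to 93.2 at 144 h. In DNMT3ABKO cells they summed to 1858 to 1871, 361 to 406 and 93.3 to 96.8 TPM, with 2 of 20 below 1 TPM and none at 0 in either line at 72 or 144 h. Macrophage markers, summed over 12 genes, ranged from 282 to 359 TPM at 0 h, 163 to 249 at 72 h and 38.7 to 57.9 at 144 h. At 144 h 9 of 12 were below 1 TPM in KH cells, 1 of them at 0, and 6 of 12 in DNMT3ABKO cells. ES cell markers, summed over 10 genes, stood at 4321 to 4609 TPM at 0 h and at 6364 to 6847 TPM later. In bulk RNA, fewer cells of a type and less RNA per cell cannot be told apart, and the part that feeder RNA has in the changes from 0 h was not tested.

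Before treatment, the most abundant transcripts were those of the steps from aldolase onward. In KH cells at 0 h the highest mean TPM belonged to Gapdh, the glyceraldehyde-3-phosphate dehydrogenase (2785 ± 133, SD, n = 2), followed by the pyruvate kinase Pkm (1875 ± 57.3), the enolase Eno1 (1645 ± 82.0), Ldha (1106 ± 86.2) and the aldolase Aldoa (1035 ± 63.3). At the other end stood Pdk2 (3.02 ± 0.00178), the bifunctional regulator Pfkfb4 (3.48 ± 0.380) and the neuronal enolase Eno2 (4.79 ± 0.198). The 33 members together took 10905 and 11746 TPM in the KH libraries at 0 h, 7500 and 7306 at 72 h, then 9915 and 9877 at 144 h. In DNMT3ABKO cells they took 9960 and 10222, then 6383 and 6508, then 7619 and 7726 TPM. The sum was thus lowest at 72 h in both lines, and at 144 h it stood nearer to the 0 h level in KH cells than in DNMT3ABKO cells.

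At 72 h most called members were lower, among them all 6 genes of the triose steps and 3 of 4 genes for enolase and pyruvate kinase in both lines. In KH cells 22 of 33 members were called (66.7%), 5 higher and 17 lower, where 47.8% of all tested genes were called, 28.3% higher and 19.5% lower. The median log2 fold change was -0.37 over the members and 0.08 over all genes. Without KH 72 h replicate 1 there were 3 higher and 15 lower. In DNMT3ABKO cells 24 members were called (72.7%), 3 higher and 21 lower, against 56.0% of all genes, 34.3% higher and 21.6% lower, with medians of -0.37 and 0.12. Without DNMT3ABKO 0 h replicate 1 there were also 3 higher and 21 lower, and without replicate 2 there were 6 higher and 18 lower. Rescaling each library by its median ratio moved the median of all genes by up to 0.122 (log2) and gave 3 members higher and 21 lower in KH cells, as against 3 higher and 23 lower in DNMT3ABKO cells. Of 21 members called in both lines, 20 had the same direction, 3 higher and 17 lower, and the exception was Ldhb. The lines share no library, but their calls rest on a common estimate of the spread. The same count over all genes was not made, so this agreement is not read as particular to the members.

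At 144 h the direction was more mixed in KH cells and stayed mostly downward in DNMT3ABKO cells. In KH cells 21 members were called (63.6%), 10 higher and 11 lower, against 51.3% of all genes, 27.4% higher and 23.9% lower, with medians of -0.10 over members and 0.05 over all genes. In DNMT3ABKO cells 23 were called (69.7%), 5 higher and 18 lower, against 57.6% of all genes, 31.4% higher and 26.2% lower, with medians of -0.25 and 0.05. Without DNMT3ABKO 0 h replicate 1 there were 4 higher and 20 lower, and without replicate 2 there were 8 higher and 17 lower. Rescaling by median ratios gave 9 higher and 13 lower in KH cells at 144 h, as against 5 and 21 in DNMT3ABKO cells. A fit of only the groups compared gave 8 and 12, as against 3 and 15. The KH split also moved when single libraries were left out. Between 72 and 144 h, 18 members rose and 3 fell in KH cells, where 22.9% of all genes were called, 7.24% higher and 15.6% lower. In DNMT3ABKO cells 12 rose and 7 fell, against 27.3% of all genes, 8.81% higher and 18.5% lower. By a simpler measure, the libraries of the groups compared did not overlap for 26 of 33 members in KH cells at 72 h (77.0% of all genes), 28 at 144 h (77.7%) and 30 between 72 and 144 h (70.3%). In DNMT3ABKO cells the counts were 26 (73.5%), 25 (73.8%) and 32 (70.6%). For the contrasts from 0 h such counts were near the background. The late contrasts share the 72 or 144 h libraries with the contrasts from 0 h and are not a separate line of evidence.

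**Figure D1:**
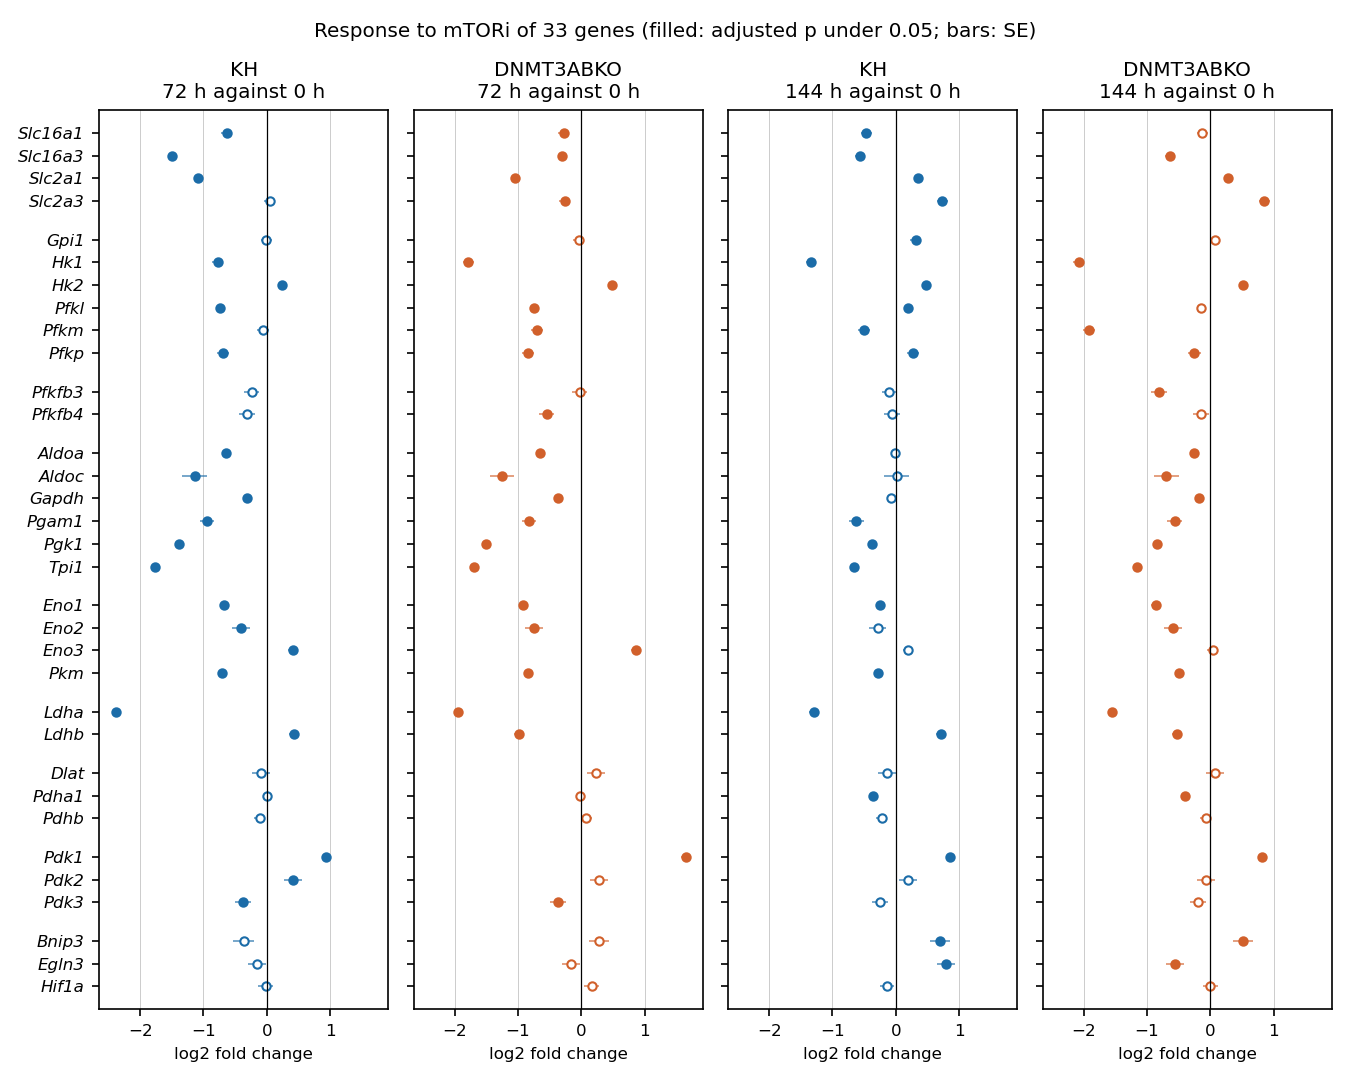
Log2 fold change (x axis, on log2(TPM + 1)) of the 33 members at 72 and 144 h against 0 h in KH and DNMT3ABKO cells, ordered by pathway step from transport to oxygen response, with bars for the SE and filled points for adjusted p under 0.05. At 72 h the 6 triose-step genes from Aldoa to Tpi1 lie left of 0 in both lines and Pdk1 lies to the right. At 144 h both glucose transporters lie right of 0 in both lines.

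Among the transport genes, Slc2a1 fell and then rose above its 0 h level in both lines. Slc2a1, the widely used glucose transporter GLUT1, had 137 and 141 TPM in the KH libraries at 0 h, 65.7 and 64.8 at 72 h, then 175 and 182 at 144 h. In DNMT3ABKO cells it had 137 and 149, 69.9 and 67.0, and then 176 and 172 TPM. The groups did not overlap in either line, and the 72 h libraries were lowest and the 144 h libraries highest. Slc2a1 fell at 72 h, with log2 changes of -1.08 in KH and -1.05 in DNMT3ABKO cells (limma adjusted p = 1.55e-06 and 9.04e-07), and from 72 to 144 h it rose 2.74-fold and 2.54-fold in mean TPM.

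Slc2a3, the high-affinity transporter GLUT3, took a different course. Its libraries had 209 and 228 TPM in KH cells at 0 h, 227 and 225 at 72 h, then 349.9 and 378 at 144 h, so that the 0 and 72 h libraries overlapped and only the 144 h libraries stood apart. DNMT3ABKO libraries had 167 and 199, 149.9 and 154, and then 321 and 337 TPM. At 144 h Slc2a3 rose by 0.74 ± 0.09 (SE) in KH cells and 0.85 ± 0.09 in DNMT3ABKO cells (limma adjusted p = 7.62e-05 and 1.95e-05). A fall at 72 h was called in DNMT3ABKO cells (-0.26) and lost when DNMT3ABKO 0 h replicate 2 or either 72 h replicate was left out (adjusted p = 0.0767 to 0.131). Slc2a3 thus held 77.5 and 77.6% of the summed Slc2a1 and Slc2a3 TPM in the KH libraries at 72 h, against 60.4 and 61.8% at 0 h and 66.7 and 67.5% at 144 h.

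Of the lactate and pyruvate transporters of the plasma membrane, Slc16a3 fell in both lines at both times and Slc16a1 fell in KH cells. Slc16a3, the exporter MCT4 of glycolytic cells, had 33.4 and 36.4 TPM in KH cells at 0 h, 11.7 and 11.9 at 72 h, then 22.7 and 23.9 at 144 h. In DNMT3ABKO cells its libraries had 28.6 and 27.0, 22.2 and 22.6, and then 16.9 and 17.98 TPM. The KH libraries dipped at 72 h and recovered in part, whereas the DNMT3ABKO libraries went down at each step. The 72 h log2 change was -1.49 ± 0.07 in KH and -0.30 ± 0.07 in DNMT3ABKO cells, a difference between lines of 1.19 ± 0.10 (limma adjusted p = 4.66e-04). Slc16a1, the transporter MCT1, had 69.6 and 74.1, 45.6 and 46.6, and then 51.4 and 51.8 TPM over the time course in KH cells, a fall with log2 changes of -0.63 and -0.47. The DNMT3ABKO values were 61.6 and 74.8, 57.2 and 54.8, and then 61.4 and 62.7 TPM. The 144 h change (-0.13) was not called, and the call at 72 h (-0.27) was lost without DNMT3ABKO 0 h replicate 2 or either 72 h replicate (adjusted p = 0.0542 to 0.110).

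**Figure D2:**
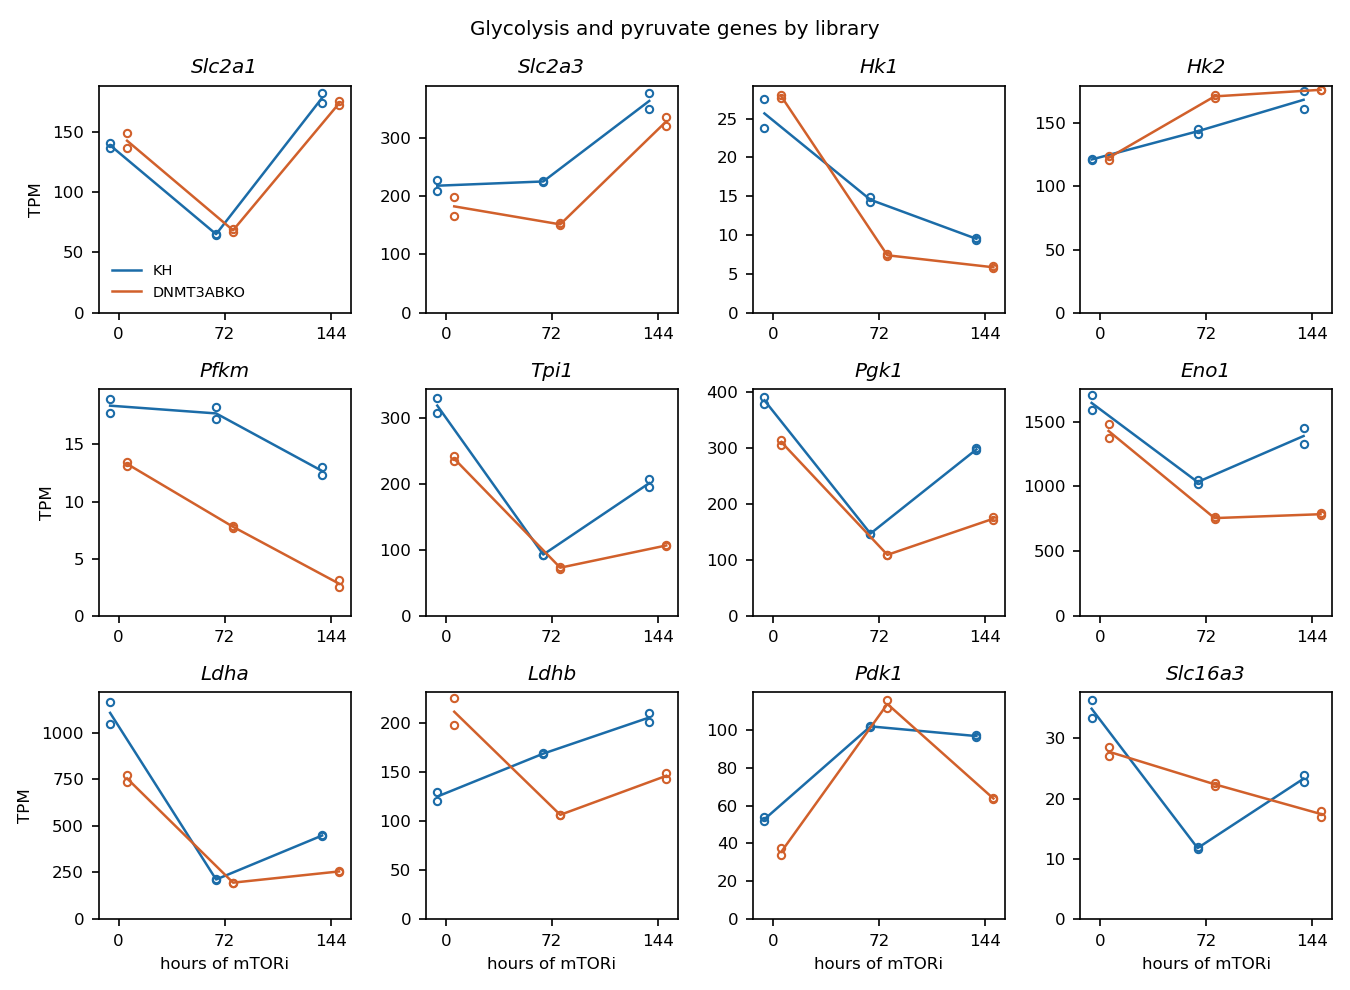
TPM (y axis, from 0) of 12 members against hours of mTORi (x axis), with 1 open point per library, 2 per group, and lines through the group means, KH in blue and DNMT3ABKO in orange. Slc2a1, Tpi1, Pgk1 and Ldha dip at 72 h in both lines, and Hk2 and Slc2a3 are highest at 144 h. Ldhb moves up in KH cells, whereas in DNMT3ABKO cells it dips at 72 h and returns in part.

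At the hexokinase step, which traps glucose in the cell as glucose 6-phosphate, the isoenzymes moved in opposite directions. Hk1, the housekeeping form, had 23.8 and 27.6 TPM at 0 h in KH cells, 14.2 and 14.9 at 72 h, then 9.61 and 9.41 at 144 h. DNMT3ABKO cells started at 28.1 and 27.6 TPM and reached 7.52 and 7.26, and then 5.98 and 5.71. No groups of a line overlapped, and the level went down at both steps in both lines. The log2 change at 144 h was -1.34 ± 0.09 in KH and -2.08 ± 0.09 in DNMT3ABKO cells (limma adjusted p = 1.16e-06 and 2.93e-08), and the fall was deeper in DNMT3ABKO cells, with a difference of -1.01 ± 0.12 at 72 h and -0.74 ± 0.12 at 144 h (adjusted p = 0.00135 and 0.00415). Hk1 was called lower from 72 to 144 h in DNMT3ABKO cells as well (-0.29), but that call was lost without any of the 4 libraries it compares (adjusted p = 0.0829 to 0.144) and under rescaling by median ratios (0.0547).

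Hk2, the inducible form that can bind mitochondria, rose instead. Its KH libraries had 122 and 121 TPM at 0 h, 146 and 142 at 72 h, then 176 and 162 at 144 h, and its DNMT3ABKO libraries 121 and 124, 170.3 and 172, and then 177 and 176. All 8 treated libraries lay above the 4 untreated ones. The rise at 144 h was 0.47 and 0.52 on the log2 scale in KH and DNMT3ABKO cells (limma adjusted p = 1.07e-04 and 3.70e-05), while the KH rise at 72 h (0.24) was lost without KH 72 h replicate 1 (adjusted p = 0.0551) and under rescaling by median ratios (0.0839). Hk2 made up 83.6 and 81.4% of the summed hexokinase TPM in the KH libraries at 0 h and 94.8 and 94.5% at 144 h, and 81.1 and 81.8% and 96.7 and 96.9% in DNMT3ABKO cells.

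Glucose-6-phosphate isomerase, Gpi1, was not called at 72 h in either line, with log2 changes of -0.01 and -0.04. In KH cells it was called higher at 144 h, with 205 and 233 TPM at 0 h, 220 and 216 at 72 h, then 269 and 275. DNMT3ABKO libraries had 183 and 214, 189 and 196, and then 208 and 209 TPM, and the 144 h change was not called. Phosphofructokinase, the committed step, has 3 subunit genes, and they separated. Pfkl, the liver form, had 89.7 and 98.4, 56.8 and 54.9, and then 108 and 109 TPM in the KH libraries at 0, 72 and 144 h, and 77.6 and 74.4, 44.5 and 45.0, and then 66.7 and 70.2 in the DNMT3ABKO libraries. It fell at 72 h (log2 change -0.74 in KH and -0.75 in DNMT3ABKO cells) and rose again by 0.94 and 0.60 from 72 to 144 h. Pfkp, the platelet form, had 55.5 and 65.5, 37.6 and 36.2, and then 69.9 and 76.3 TPM in KH cells and 77.7 and 91.1, 46.4 and 46.8, and then 68.7 and 72.4 in DNMT3ABKO cells, a dip of the same kind (-0.69 and -0.84 at 72 h). The Pfkp calls at 144 h against 0 h (0.27 and -0.25) were lost without any single 72 or 144 h library, and also without KH 0 h replicate 1 in KH cells (adjusted p = 0.0547 to 0.270) and DNMT3ABKO 0 h replicate 2 in DNMT3ABKO cells (0.0591 to 0.235).

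Pfkm, the muscle form, had the widest gap between the lines of any member, at 144 h. Its KH libraries had 17.8 and 19.0 TPM at 0 h, 18.2 and 17.2 at 72 h, then 12.3 and 13.1 at 144 h, so the 0 and 72 h libraries overlapped and the 144 h libraries were lower. Its DNMT3ABKO libraries had 13.5 and 13.1, 7.89 and 7.69, and then 2.50 and 3.14 TPM, with a lower level at each step. At 144 h the log2 change was -0.50 ± 0.10 in KH and -1.91 ± 0.10 in DNMT3ABKO cells, and the lines differed in this response by -1.41 ± 0.14 (limma adjusted p = 8.67e-05). At 72 h the difference in response was -0.65 ± 0.14 (adjusted p = 0.0218), a call lost without KH 0 h replicate 1 or any single 72 h library (adjusted p = 0.0685 to 0.107) and with a replicate block (0.0586). The Pfkm share of phosphofructokinase TPM went from 8 and 7.33% at 0 h to 1.81 and 2.15% at 144 h in the DNMT3ABKO libraries and from 10.9 and 10.4% to 6.48 and 6.595% in the KH libraries.

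Pfkfb3 and Pfkfb4 make and remove fructose 2,6-bisphosphate, which activates phosphofructokinase. Pfkfb3 had 11.0 and 11.1, 9.86 and 8.65, and then 11.2 and 9.33 TPM over the KH time course and 10.5 and 13.2, 11.5 and 11.6, and then 6.02 and 6.55 in DNMT3ABKO cells. Only the DNMT3ABKO libraries at 144 h stood apart, with a log2 change of -0.81 ± 0.12 from 0 h (limma adjusted p = 2.80e-04). Pfkfb4 was called lower in DNMT3ABKO cells at 72 h (-0.55, from 3.17 to 1.86 TPM) and not in KH cells (-0.31), and the difference between lines was not called (adjusted p = 0.544).

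The triose steps moved together. All 6 genes, from aldolase to phosphoglycerate mutase, fell at 72 h in both lines, and 3 of them in KH cells and all 6 in DNMT3ABKO cells were lower at 144 h than at 0 h. Of these 144 h calls in DNMT3ABKO cells, that of Aldoc was lost without DNMT3ABKO 0 h replicate 2 or 144 h replicate 1 (adjusted p = 0.0636 and 0.0731), and that of Gapdh without either DNMT3ABKO 144 h replicate, either KH 144 h replicate or either DNMT3ABKO 72 h replicate (0.0510 to 0.145) and with a replicate block (0.0679). Tpi1, triose phosphate isomerase, had 308 and 331 TPM in KH cells at 0 h, 93.1 and 93.1 at 72 h, then 196 and 208 at 144 h. DNMT3ABKO libraries had 243 and 235, 71.7 and 74.7, and then 108 and 106 TPM. The 72 h level was 29.2% of the 0 h mean in KH and 30.7% in DNMT3ABKO cells, and the 144 h level 63.1% and 44.8%. The log2 changes at 72 h were -1.77 ± 0.06 and -1.69 ± 0.06 (limma adjusted p = 1.32e-07 and 6.56e-08).

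Pgk1, phosphoglycerate kinase, makes the first ATP of the pathway. Its KH libraries had 379.6 and 391, 147 and 147, and then 299.7 and 296 TPM at 0, 72 and 144 h, and its DNMT3ABKO libraries 306 and 315, 109 and 109, and then 177 and 171. The level dropped to 38.2% and 35.1% of the 0 h mean at 72 h (log2 change -1.38 ± 0.05 and -1.50 ± 0.05) and returned to 77.3% in KH and 55.9% in DNMT3ABKO cells at 144 h. Gapdh, often used as a reference gene, changed least of the triose genes called at 72 h, with 2691 and 2879 TPM in KH cells at 0 h and 2270.3 and 2208 at 72 h (log2 change -0.31 ± 0.06). In KH and DNMT3ABKO cells at 72 h the log2 changes were -0.64 and -0.64 for Aldoa and -0.94 and -0.82 for Pgam1, phosphoglycerate mutase. Aldoc, the brain aldolase, was low, at 5.16 and 5.83 TPM in KH cells at 0 h, 1.76 and 2.14 at 72 h, then 5.74 and 5.34 at 144 h, and at 2.63 and 3.65, 0.401 and 1.12, and then 1.36 and 1.72 TPM in DNMT3ABKO cells. It fell at 72 h (log2 change -1.14 and -1.25), and its KH libraries at 144 h lay within the range of those at 0 h.

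Near-identical copies elsewhere in the genome can take reads from several of these genes, and 206 such loci (at least 90% identity over 300 bases or more and 50% of the locus) were found for 12 members. Their share of the TPM of member and copies was 29.4 to 34.1% for Pgk1, 27.9 to 35.7% for Pgam1, 26.7 to 28.9% for Eno1 and 14.6 to 16.7% for Gapdh, so the levels of these 4 genes are uncertain to that extent. For Ldha it was 0.415 to 0.931% and for Tpi1 0.647 to 1.56%. Adding the copies to their member, an alternative chosen after seeing the data, left 359 of the 363 member and contrast pairs on the same side of the threshold, with 3 calls gained and 1 lost, and turned no direction.

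At the enolase step Eno1 fell and Eno3 rose. Eno1, the general form, had 1587 and 1703, 1049 and 1019, and then 1451 and 1329 TPM over the KH time course and 1378 and 1479.8, 745 and 766, and then 793 and 778 in DNMT3ABKO cells. It fell at 72 h in both lines (-0.67 and -0.92), and from 72 to 144 h it rose in KH cells (0.42) while the DNMT3ABKO value was 0.06 and not called. The KH call at 144 h against 0 h (-0.24) was lost without KH 0 h replicate 2 or KH 144 h replicate 2 (adjusted p = 0.0831 and 0.127). Eno3, the muscle form, rose at 72 h, from 17.4 and 20.4 to 25.4 and 25.7 TPM in KH cells and from 21.03 and 21.8 to 39.4 and 40.5 in DNMT3ABKO cells (log2 change 0.42 ± 0.08 and 0.87 ± 0.08). At 144 h it had 22.1 and 21.4 TPM in KH and 22.7 and 21.2 TPM in DNMT3ABKO cells and was called in neither line. Pkm, which encodes pyruvate kinase, had 1835 and 1916, 1176 and 1134, and then 1543 and 1548 TPM in KH cells, and fell, with log2 changes of -0.70 at 72 h and -0.28 at 144 h. The DNMT3ABKO changes were -0.85 and -0.50, and gene-level TPM does not separate the PKM1 and PKM2 transcripts.

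Lactate dehydrogenase held the deepest fall of any member at 72 h, whereas at 144 h that of Hk1 was deeper in both lines. Ldha, whose subunit favours making lactate, had 1045 and 1166 TPM in KH cells at 0 h, 216 and 209 at 72 h, then 447 and 449 at 144 h. DNMT3ABKO libraries had 735 and 773, 196 and 195, and then 254 and 257 TPM. In KH cells the 72 h level was 19.2% of the 0 h mean and the 144 h level 40.5%, and in DNMT3ABKO cells 25.9% and 33.9%. The log2 changes at 72 h were -2.37 ± 0.06 and -1.94 ± 0.06 (limma adjusted p = 5.62e-08 and 4.97e-08), and these calls held under every alternative run. The lines differed in this response by 0.43, the fall being smaller in DNMT3ABKO cells (adjusted p = 0.0242), a call lost without KH 0 h replicate 2, or any single 72 or 144 h library (adjusted p = 0.0520 to 0.115) and with a replicate block (0.0667).

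Ldhb, whose subunit favours turning lactate back into pyruvate, was the only member called in opposite directions in the lines at both times. In KH cells it had 121 and 129.6 TPM at 0 h, 169 and 169.5 at 72 h, then 202 and 210.5 at 144 h, a rise of 0.43 ± 0.07 and 0.71 ± 0.07 on the log2 scale. In DNMT3ABKO cells it had 226 and 198, 107 and 106, and then 149 and 143 TPM, a change of -0.98 ± 0.07 and -0.53 ± 0.07. The untreated DNMT3ABKO libraries were above the untreated KH libraries, and the treated ones were below. The difference between lines was -1.41 ± 0.10 at 72 h and -1.24 ± 0.10 at 144 h (limma adjusted p = 2.94e-04 and 2.37e-05), and it was called under every alternative run.

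The make-up of lactate dehydrogenase transcripts shifted toward Ldhb in both lines. Ldhb held 10.4 and 10.00% of the summed Ldha and Ldhb TPM in the KH libraries at 0 h, 43.9 and 44.8% at 72 h, then 31.1 and 31.9% at 144 h. In DNMT3ABKO cells the share was 23.5 and 20.4%, then 35.3 and 35.3%, then 37.1 and 35.8%. A share within a pair of genes does not depend on how a library was scaled. All 8 treated libraries lay above the 4 untreated ones, and the shares are given as a description with no test.

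**Figure D3:**
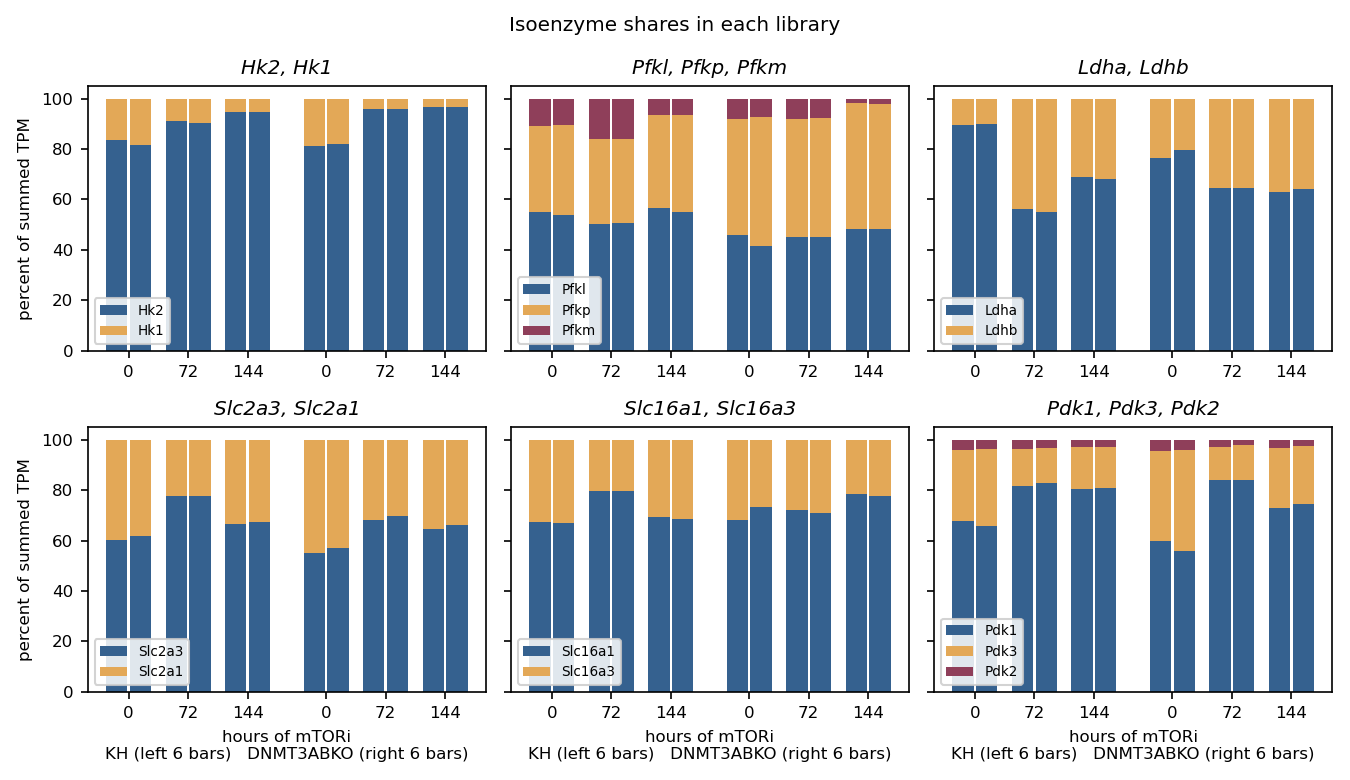
Share of the summed TPM (y axis, percent) held by each isoenzyme or transporter in 6 gene groups, as stacked bars, 1 bar per library, with the 6 KH libraries at the left and the 6 DNMT3ABKO libraries at the right of each panel, at 0, 72 and 144 h. Ldhb widens and Hk1 narrows after 0 h in both lines, and Pfkm holds 1.81 and 2.15% of its group in DNMT3ABKO cells at 144 h.

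Entry of pyruvate into the mitochondrial route showed small changes in the enzyme complex and a larger rise in the kinase Pdk1. Pdha1, the catalytic subunit that the kinases phosphorylate, had 169.8 and 183 TPM in KH cells at 0 h, 177 and 176 at 72 h, then 138 and 136 at 144 h. In DNMT3ABKO cells it had 144 and 155, 150.4 and 144, and then 109 and 116 TPM. It was not called at 72 h and fell at 144 h, with log2 changes of -0.36 and -0.41 (limma adjusted p = 0.00106 and 4.04e-04). Pdhb and Dlat, the other subunits of the complex followed here, were called in none of the 6 contrasts between time points, with log2 changes from -0.22 to 0.23.

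Pdk1, the kinase that HIF1A is known to induce, rose. Its KH libraries had 51.6 and 53.9 TPM at 0 h, 102 and 102 at 72 h, then 96.1 and 97.4 at 144 h, and its DNMT3ABKO libraries 33.6 and 37.7, 116 and 112, and then 63.3 and 64.2. No treated library overlapped the untreated ones of its line, and the DNMT3ABKO libraries came down again at 144 h. The rise at 72 h was 1.93-fold in KH and 3.19-fold in DNMT3ABKO cells in mean TPM, or 0.94 ± 0.07 and 1.65 ± 0.07 on the log2 scale, with a difference between lines of 0.71 ± 0.09 (limma adjusted p = 0.00227). Pdk1 held 67.6 and 65.6% of the summed Pdk1, Pdk2 and Pdk3 TPM in the KH libraries at 0 h and 81.5 and 82.7% at 72 h. Pdk2, at 2.15 to 4.69 TPM, and Pdk3, at 17.4 to 27.2 TPM, were called at 72 h in KH cells (0.41 and -0.37), but the Pdk2 call was lost without any single KH library (adjusted p up to 0.194) and the Pdk3 call without KH 0 h replicate 2, any single 72 h library or either KH 144 h replicate (up to 0.196).

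Among the oxygen-responsive members, Hif1a itself was not called in any of the 11 contrasts. It had 59.7 and 66.0 TPM in KH cells at 0 h, 61.6 and 62.5 at 72 h, then 57.2 and 56.7 at 144 h, and these RNA values say nothing of its protein. Egln3, a prolyl hydroxylase that marks HIF1A for destruction and is itself a HIF1A target, had 5.39 and 7.70 TPM, then 5.86 and 5.53, then 12.2 and 11.7 in KH cells, and 6.46 and 8.07, 6.39 and 6.38, and then 4.51 and 4.66 in DNMT3ABKO cells. It rose at 144 h in KH cells by 0.80 ± 0.14 and fell in DNMT3ABKO cells, with a change of -0.56 ± 0.14, a difference between lines of -1.36 ± 0.20 (limma adjusted p = 0.00233). Bnip3, a mitophagy receptor and HIF1A target, rose at 144 h in KH cells, from 26.7 and 29.0 to 46.4 and 45.4 TPM (log2 change 0.70 ± 0.16). Its rise in DNMT3ABKO cells (0.52) was lost without DNMT3ABKO 0 h replicate 1 or 144 h replicate 1 (adjusted p = 0.101 and 0.1001).

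The lines were compared directly at each time. Markers of other cells also differed between them. In DNMT3ABKO cells 4 of 18 tested fibroblast markers were higher at 0 h (4.92% of all genes). Of 12 macrophage markers, 11 were lower at 72 h (10.0% of all genes) and 6 higher at 144 h (11.0%). At 144 h 9 of these 12 in KH and 6 in DNMT3ABKO cells were below 1 TPM. The part of other cells in the line differences was not tested. At 0 h 10 members were called (30.3%), 2 higher and 8 lower in DNMT3ABKO cells, against 9.06% of all genes, 4.92% higher and 4.14% lower. The same 2 and 8 counts came out without DNMT3ABKO 0 h replicate 1, whereas 2 higher and 19 lower were called without replicate 2, 1 and 6 without KH 0 h replicate 1, 2 and 4 without KH 0 h replicate 2, and 1 in a fit of these groups alone. Ldhb (0.75) and Pfkp (0.47) were higher, and Pdk1 (-0.56), Ldha (-0.55) and Pfkm (-0.44) were the lowest called members relative to KH. The Pfkp call was lost without KH 0 h replicate 1 (adjusted p = 0.0918), and the Pfkm call without either KH 0 h replicate (0.0549 and 0.126).

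At 72 h 17 members differed (51.5%), 5 higher and 12 lower in DNMT3ABKO cells, against 19.3% of all genes, 9.26% higher and 10.0% lower. The split fell to 2 higher and 7 lower without KH 72 h replicate 1 or DNMT3ABKO 72 h replicate 1 and to 2 and 8 without either other 72 h library. It was 3 and 12 without any single 144 h library, and 8 and 14 without either DNMT3ABKO 0 h library. Libraries of the lines did not overlap for 21 members at 0 h (41.4% of all genes), 30 at 72 h (70.1%) and 28 at 144 h (70.7%). At 72 h Slc16a3 (0.87 ± 0.07) and Eno3 (0.62 ± 0.08) were higher, and Pfkm (-1.09 ± 0.10), Hk1 (-0.89 ± 0.09) and Ldhb (-0.66 ± 0.07) lower (limma adjusted p at most 5.59e-04 for these 5). At 144 h 20 members differed (60.6%), 1 higher and 19 lower, against 26.5% of all genes, 11.0% higher and 15.5% lower. The median log2 difference was -0.40 over members and -0.04 over all genes, and every step except the fructose 2,6-bisphosphate pair, the dehydrogenase complex and the kinases had at least 2 called members. Pfkm (-1.84 ± 0.10), Aldoc (-1.37 ± 0.19), Egln3 (-1.21 ± 0.14), Tpi1 (-0.91 ± 0.06) and Eno1 (-0.82 ± 0.07) were lowest relative to KH. The member that was higher, Slc16a1 (0.26, adjusted p = 0.0483), lost its call without any single library other than those of DNMT3ABKO cells at 0 h (adjusted p = 0.0571 to 0.189) and with a replicate block (0.0706).

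**Figure D4:**
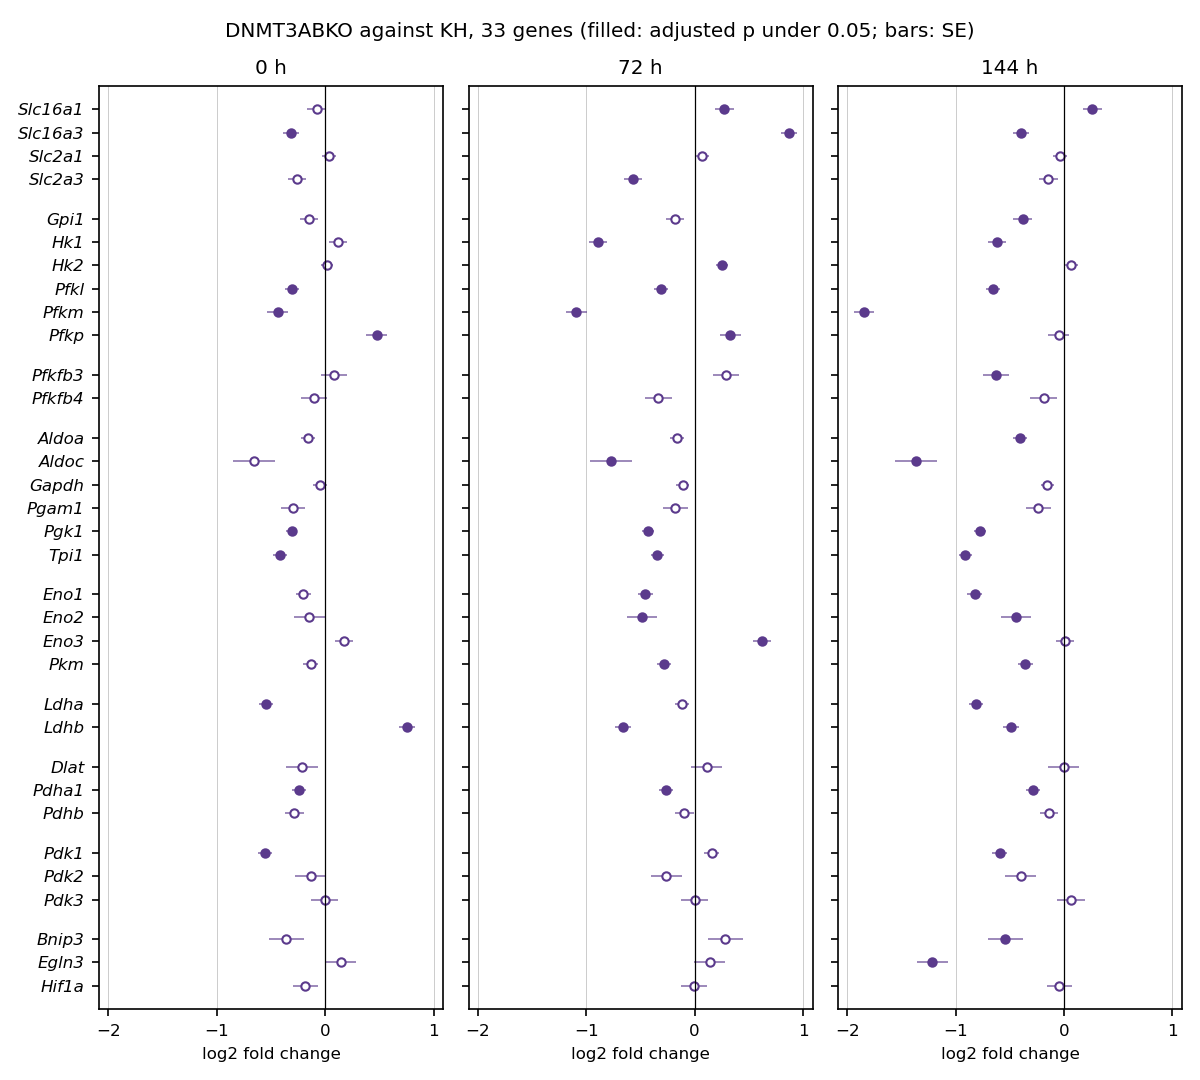
Log2 difference of DNMT3ABKO against KH cells (x axis) for the 33 members at 0, 72 and 144 h, in the same order by pathway step, with bars for the SE and filled points for adjusted p under 0.05. Ldhb and Pfkp lie right of 0 at 0 h, and at 144 h all filled points except Slc16a1 lie left of 0, with Pfkm farthest at -1.84.

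The response itself differed between lines for 6 members at 72 h (18.2%), 3 in each direction, against 5.23% of all genes, 3.38% higher and 1.86% lower, and for 10 members at 144 h (30.3%), all with a lower value in DNMT3ABKO cells, against 8.59% of all genes, 4.89% higher and 3.70% lower. Without DNMT3ABKO 0 h replicate 1 the 72 h split was 3 higher and 4 lower, and all 13 members called at 144 h were lower. Without replicate 2 the split was 10 higher and 3 lower at 72 h and 3 higher and 11 lower at 144 h. Rescaling by median ratios gave 5 higher and 4 lower at 72 h and 1 higher and 11 lower at 144 h. The 72 h count fell to 4 without any single 72 h library. The 10 at 144 h were Hk1, Pfkl, Pfkm, Pfkp, Pfkfb3, Tpi1, Pgk1, Eno1, Ldhb and Egln3, and 3 of these calls, were less stable. Those of Pfkl and Pfkp were lost without KH 0 h replicate 1 or any single 72 or 144 h library (adjusted p up to 0.167 and 0.154), that of Pfkl also with a replicate block (0.0996), and that of Pfkfb3 without either KH 0 h replicate, KH 144 h replicate 1 or any treated DNMT3ABKO library (up to 0.124). For Tpi1, Pgk1 and Eno1 the difference was -0.49 ± 0.09, -0.46 ± 0.07 and -0.62 ± 0.10, so that the 144 h level lay further below the 0 h level in DNMT3ABKO than in KH cells. Whether the change from 72 to 144 h differed between lines was not tested.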

How the data were processed

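RNA of 12 mouse ES cell libraries was spiked with ERCC RNA, depleted of ribosomal RNA and sequenced. The authors deposited 1 file per library with TPM per gene, a length-corrected share of all transcripts that summed to 1000000 in each. The submitters' processing notes name cutadapt 2.4, STAR 2.7.3a, StringTie 2.0 and mm10, and the methods give other STAR and StringTie releases. Depth is unknown. Files listed 54456 rows and 54446 identifiers, and 9 to 16 repeated rows per file were summed. No column was left unmapped (0).

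The 15727 genes averaging 1 TPM or more were tested as log2(TPM + 1) with limma 3.58.1 in R 4.3.3 (lmFit, eBayes with a trend, 6 group coefficients, 11 contrasts, Benjamini-Hochberg threshold 0.05), after a test on simulated data. The study's count-based test does not suit TPM. Knockout genes were compared with an exact permutation test. Members, lists, tests and alternatives were chosen with earlier results of these data known. Values per library are given for the 3 highest and 3 lowest called members of each response from 0 h, line difference and difference in response, and for at least 1 member per step, and others so described were chosen after their values were seen. Of other lists, at most the 3 highest and 3 lowest called genes per response were named, Ddit4 and Kdm3a included. Copies were found with BLAST 2.17.0, and promoters come from RefSeq (GRCm38.p6). The alternatives used 0.1 TPM as pseudocount, no filter, median-ratio scaling, only the groups compared, the replicate block, a minimum log2 fold change of 1, each library left out, and, added after seeing the data, near copies summed with their member. Tables and plots were made in Python 3.11.15 with matplotlib 3.10.9, SciPy 1.17.1, NumPy 2.4.6 and pandas 2.3.3.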

Additional observations from a re-analysis of the deposited data

Results flagged for a closer look

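The response to mTORi differed between KH and DNMT3ABKO cells for 6 members at 72 h and 10 at 144 h, by limma's test of the difference between the lines' log2 changes, adjusted over all genes. The differences are given as DNMT3ABKO minus KH. At 72 h they were 1.19 for Slc16a3, 0.71 for Pdk1, 0.43 for Ldha, -0.65 for Pfkm, -1.01 for Hk1 and -1.41 for Ldhb. At 144 h they were -0.35 for Pfkl, -0.46 for Pgk1, -0.49 for Tpi1, -0.52 for Pfkp, -0.62 for Eno1, -0.71 for Pfkfb3, -0.74 for Hk1, -1.24 for Ldhb, -1.36 for Egln3 and -1.41 for Pfkm. Groups of 2 libraries are too small for a test of single outlying libraries.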

How the results depend on the processing

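Over 363 pairs of member and contrast, 193 were called, and none of the 19 alternatives turned the direction of a called pair. A pseudocount of 0.1 TPM changed 2 verdicts (1 gained, 1 lost), no filter on low values lost 23 calls, rescaling by median ratios lost 7 and gained 26, and a fit of only the groups compared lost 25 and gained 14. That last fit left 1 call for the lines at 0 h. Leaving out 1 library lost 48 of the 193 calls in at least 1 case. Counts of called members then ran from 18 to 23 for KH 72 h against 0 h, 17 to 24 for KH 144 h against 0 h, 16 to 23 for KH 144 h against 72 h, 21 to 24 for DNMT3ABKO 72 h against 0 h, 18 to 25 for DNMT3ABKO 144 h against 0 h and 15 to 22 for DNMT3ABKO 144 h against 72 h. For the lines they ran from 6 to 21 at 0 h, 9 to 22 at 72 h and 15 to 22 at 144 h, and for the difference in response from 4 to 13 at 72 h and 7 to 14 at 144 h. Where such a fit left a group with 1 library, that library was assumed to vary like the other groups. A minimum absolute log2 fold change of 1 left 6, 2 and 6 calls in the KH contrasts in the order above, 7, 4 and 3 in the DNMT3ABKO contrasts, 0, 1 and 3 for the lines at 0, 72 and 144 h, and 3 and 3 for the differences in response, since it removes smaller changes by construction. The study states that time points of a biological replicate were handled together, but the labels do not tie the replicate numbers to those runs, and same-numbered libraries did not deviate together (correlations from -0.104 to 0.0996), so whether the numbers pair the libraries is uncertain. With the replicate number as a block 16 calls were lost and 2 gained, with 21, 20 and 20 members called in the KH contrasts, 24, 22 and 19 in the DNMT3ABKO contrasts, 8, 15 and 17 for the lines and 4 and 9 for the differences in response. The cause of these shifts was not tested. TPM values keep no depth, so counting error could not be given, and members with a mean below 5 TPM in some group (Pdk2, Pfkfb4, Eno2, Aldoc, and Pfkm and Egln3 in DNMT3ABKO cells at 144 h) are the least certain.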

Other observations

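Other lists of genes, chosen with earlier results of these data known, were read beside the members. Of 34 further glycolysis and pyruvate genes 20 were tested. At 72 h 7 rose and 5 fell in KH cells, where 28.3% of all genes were higher and 19.5% lower, and 8 rose and 4 fell in DNMT3ABKO cells, where 34.3% were higher and 21.6% lower, so both counts were near the share over all genes. Pdp1, the phosphatase that switches pyruvate dehydrogenase back on, rose by 1.09 on the log2 scale in KH and 1.18 in DNMT3ABKO cells at 72 h, and Pcx, pyruvate carboxylase, which makes oxaloacetate from pyruvate, rose by 0.83 and 1.07. Slc2a4, the insulin-regulated transporter GLUT4, rose by 0.96 and 0.92 but stayed between 0.4 and 2.0 TPM. Bpgm, which makes 2,3-bisphosphoglycerate, changed by -0.60 and -0.80, and Tigar, which lowers fructose 2,6-bisphosphate, by -0.32 and -0.83. At 144 h 5 rose and 6 fell in KH cells, where 27.4% of all genes were higher and 23.9% lower. In DNMT3ABKO cells 7 rose and 4 fell, where 31.4% were higher and 26.2% lower, so these counts were also near the share over all genes.

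Over all genes 28.3% were called higher and 19.5% lower in KH cells at 72 h, and 27.4% and 23.9% at 144 h. The DNMT3ABKO shares were 34.3% and 21.6% at 72 h, and 31.4% and 26.2% at 144 h. These shares apply to each list below. Of 7 pentose phosphate genes, 5 fell in KH cells at 72 h and 5 at 144 h, with none higher, and in DNMT3ABKO cells 3 fell at 72 h and 5 at 144 h, where Rpe rose. Pgd, the phosphogluconate dehydrogenase, was lowest in all 4 responses, with KH values of -0.45 and -0.68 and DNMT3ABKO values of -0.62 and -0.80. Among 20 citrate cycle genes 3 rose and 5 fell in KH cells at 72 h and 2 and 5 at 144 h, whereas DNMT3ABKO cells had 4 and 7, then 3 and 8, with Idh1 the lowest in each (-0.93 to -0.58). Of 26 other HIF pathway genes 25 were tested. At 72 h 3 rose and 10 fell in KH cells, and 5 rose and 10 fell in DNMT3ABKO cells. The 144 h counts were 6 higher and 11 lower in KH, and 8 higher and 9 lower in DNMT3ABKO cells. Ddit4, an mTOR inhibitor induced by stress, fell most at 72 h, from 38.8 and 38.2 to 5.74 and 5.98 TPM in KH cells, whereas Kdm3a, a histone demethylase, rose by 0.83 and 0.74. Genes of one list thus moved both ways, and no test over a list was made.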
